A study of Mus musculus with 5 samples.

Results

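The plasma cell programme genes described here are Jchain, Mzb1, Xbp1, Derl3, Prdm1, Irf4 and Sdc1, which were taken by symbol from the gene lists of 2 single-cell RNA libraries. They are 7 of 32245 gene symbols, and each had at least 1 UMI in both libraries. A UMI, or unique molecular identifier, stands for 1 captured RNA molecule. The question was how these genes are carried along B, germinal centre B and plasma cells, and which cells outside the B lineage carry them.

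Antibody-secreting plasma cells arise from activated B cells, often after a germinal centre reaction, in which B cells proliferate and are selected for their antigen receptor. The transcription factor Irf4 acts early in this switch, Prdm1 (Blimp-1) silences B cell identity genes, and Xbp1 is spliced by the endoplasmic reticulum (ER) stress sensor Ire1 and enlarges the secretory machinery. Derl3 takes part in degradation of misfolded ER proteins, Mzb1 is an ER co-factor of antibody assembly, Jchain joins IgM and IgA into polymers, and Sdc1 (CD138) is the surface proteoglycan used to sort plasma cells.

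The study measured BALB/c mice, 6 weeks old, with CT26 tumours grown under the skin. CT26 is an established colon carcinoma line of the mouse. The control group received phosphate-buffered saline and the treated group 100 µg of the anti-CTLA-4 antibody 9H10, which blocks an inhibitory receptor of T cells, into the peritoneum on days 5, 8 and 11 of tumour growth. Animals of both groups were killed on day 13, and the labels call the dissociated material only tissue. Each group has 1 gene expression library and 1 T cell receptor library, and the anti-CTLA-4 group also has a B cell receptor (BCR) library, all from the 10x 5' kit with a target of 5000 cells. The number of animals behind each library is not given in the sources used here.

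With 1 library per group no difference between treatments can be tested. Every interval below is an exact 95% interval of counting error and covers neither animals nor droplet effects. The control library held 86478313 UMIs in 5649 barcodes and the anti-CTLA-4 library 19989467 UMIs in 4186 barcodes. After filtering, 5234 and 3946 cells remained, with medians of 7415 and 3189 UMIs per cell, and 20 barcodes occurred in both libraries. The libraries stood apart in makeup: 55.7% of control cells but 0.912% of anti-CTLA-4 cells lay in clusters without Ptprc, the pan-leukocyte gene, which gave no immune or stromal name. T-like cells made up 7.07% and 53.6%, and B-like cells 1.36% and 15.1%, in the same order. Library and treatment cannot be told apart.

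The cells were clustered without the 7 genes and named from other markers, so the levels below were not used to define the classes. The plasma-like cluster held 91 anti-CTLA-4 cells, 2.31% of that library, and no control cell kept that name (0 of 5234, exact upper limit 0.0705%). Of the 13 plasma cell markers used for the name, 10 were detected in at least 20% of these cells. Slpi, Eaf2, Tent5c and Edem1 led the cluster it was taken from. The anti-CTLA-4 library further held 25 germinal centre B-like and 597 B-like cells, and the control library 2 and 71. The germinal centre B-like sub-cluster was led by S100a9, Mef2b, Rgs13, Stmn1 and S100a8, of which S100a8 and S100a9 are neutrophil markers here. Each of the 9 germinal centre markers was detected in at least 20% of the 25 anti-CTLA-4 cells. The source of the neutrophil genes was not tested. Of the 71 control B-like cells, 60 formed a sub-cluster led by Crabp1, S100a6, Spp1 and the keratinocyte gene Lgals7, which held 1 anti-CTLA-4 cell. B-like levels of the libraries are therefore given side by side and no ratio is drawn.

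In the anti-CTLA-4 library 6 of the 7 genes were at least 2-fold higher in plasma-like than in B-like cells, and Irf4 was the exception. Among all 8239 genes with at least 20 UMIs in these cells, 10.2% were 2-fold or more higher in plasma-like cells and 52.6% were 2-fold or more lower. The median log2 ratio over these genes was -1.07. Immunoglobulin genes made up 40.2% of plasma-like UMIs and 0.964% of B-like UMIs, which lowers the share left for other genes. With immunoglobulin genes taken out of the totals the median was -0.36. Levels are UMIs of the gene per 10000 UMIs of the class, and each is compared between classes for 1 gene at a time.

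Among the regulators, Xbp1 was at 16.0 in plasma-like cells (3266 UMIs) and 0.516 in B-like cells (97 UMIs), a ratio of 30.9 (25.3 to 38.2). Prdm1 was at 0.352 (72 UMIs) and 0.0319 (6 UMIs), a ratio of 11.0 (4.82 to 31.0). Irf4 was at 1.07 (219 UMIs) and 1.21 (228 UMIs), a ratio of 0.882 (0.729 to 1.07). The side of 1 on which Irf4 fell depended on the scale. It was 1.46-fold higher in plasma-like cells (1.21 to 1.77) with immunoglobulin genes out of the totals, and 1.37-fold higher as a mean over cells.

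Irf4 was uneven within the B-like cells. A sub-cluster of 126 anti-CTLA-4 cells, led by Nfkbid, Myc and Nr4a1, early-response genes of antigen receptor signalling among them, held 180 of the 228 Irf4 UMIs. Its Irf4 level was 3.71 (3.19 to 4.29), and 61.1% of its cells had an Irf4 UMI. In the 5 other anti-CTLA-4 sub-clusters of 37 or more B-like cells the Irf4 level lay between 0.118 and 0.681. The Irf4-rich sub-cluster was not raised in Mzb1, which stood at 2.55 there against 2.94 to 6.14 in those others. Its Prdm1 count was 3 UMIs, and its Xbp1 level of 0.639 lay within their range of 0.292 to 0.981.

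Among the secretory genes, Jchain was at 268 in plasma-like cells (54872 UMIs) and 0.330 in B-like cells (62 UMIs), a ratio of 813 (634 to 1060). Mzb1 was at 75.2 (15386 UMIs) and 4.08 (767 UMIs), a ratio of 18.4 (17.1 to 19.8). Derl3 was at 3.87 (791 UMIs) and 0.0319 (6 UMIs), a ratio of 121 (55.4 to 331). B-like cells thus already carried Mzb1, with a UMI in 57.1% of cells, while Jchain and Derl3 were rare there. Sdc1, the surface marker, differed least among the 6 genes, at 0.748 (153 UMIs) against 0.197 (37 UMIs), a ratio of 3.80 (2.64 to 5.59). With immunoglobulin genes out of the totals the ratios were larger, at 1345 for Jchain, 200.4 for Derl3, 51.2 for Xbp1, 30.5 for Mzb1, 18.2 for Prdm1 and 6.29 for Sdc1.

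**Figure D1:**
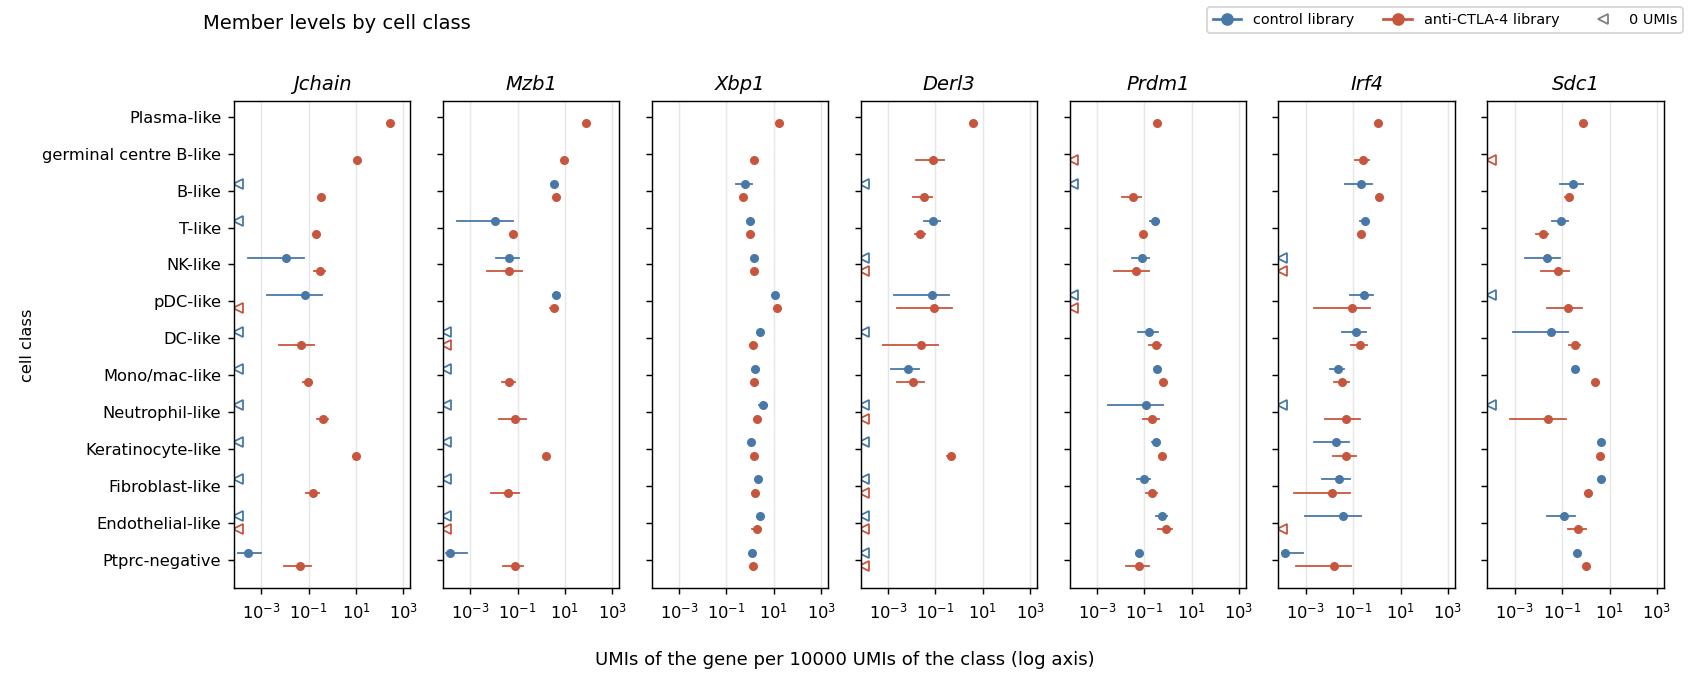
Level of each gene (UMIs per 10000 UMIs of the class, log axis) by cell class in the control library (blue) and the anti-CTLA-4 library (red). Lines are exact 95% Poisson intervals, clipped at the left edge, open triangles at the left edge mark 0 UMIs, and classes with under 15 cells in a library are not drawn. Here pDC is plasmacytoid dendritic, DC dendritic and Mono/mac monocyte/macrophage. Jchain, Mzb1, Xbp1 and Derl3 peak in plasma-like cells, while Sdc1 peaks in keratinocyte-like cells (4.01 and 4.26).

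Shares of cells with a UMI depend on depth, and the plasma-like cells had a median of 24410 UMIs against 2842 in B-like cells. Without thinning, 100% of plasma-like cells had a Jchain UMI, 97.8% Xbp1, 93.4% Mzb1, 91.2% Derl3, 62.6% Sdc1, 61.5% Irf4 and 41.8% Prdm1. After each cell was thinned to 1000 UMIs, which left 86 plasma-like and 589 B-like cells, the shares were 100% for Jchain, 89.5% for Mzb1, 61.6% for Xbp1 and 32.6% for Derl3. They were 10.5% for Irf4, 6.98% for Sdc1 and 3.49% for Prdm1. In thinned B-like cells Mzb1 was found in 29.5%, Irf4 in 9.17%, Xbp1 in 5.26%, Jchain in 2.89%, Sdc1 in 2.21% and Prdm1 in 0.509%, and Derl3 in none of 589. The Jchain share in thinned T-like cells, which should lack the gene, was 2.58% of 2052 (median depth 3298 UMIs), with an interval that overlapped that of the B-like share. RNA free in the droplets was not tested as the source of the B-like Jchain UMIs, over which the ratio of 813 is taken. The thinned Irf4 shares of plasma-like and B-like cells were close to each other, as its levels were.

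Plasma-like cells carried several of the 7 genes at once. The median cell had 6 of the 7 genes before thinning, and 19 of 91 cells had all 7. After thinning the median was 3, no cell had 6 or 7, and 70.9% of 86 plasma-like cells had 3 or more of them, against 0.679% of 589 B-like cells and 0.0487% of 2052 T-like cells. Levels still varied widely among the 91 plasma-like cells. Jchain ran from 4.85 to 992 per 10000 UMIs of the cell with a median of 230. Mzb1 ran from 0 to 307 with a median of 58.4, and Xbp1 from 0 to 64.2 with a median of 14.3. The median Derl3 level was 2.71, the median Irf4 level 0.484 and the median Sdc1 level 0.428. Prdm1 had a median of 0 and reached 17.5, so most single plasma-like cells gave no Prdm1 UMI. In a shallow cell a single UMI makes a high level, and 86 of the 91 cells had 1000 or more UMIs. Depth was not taken out of these single-cell ranges.

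**Figure D2:**
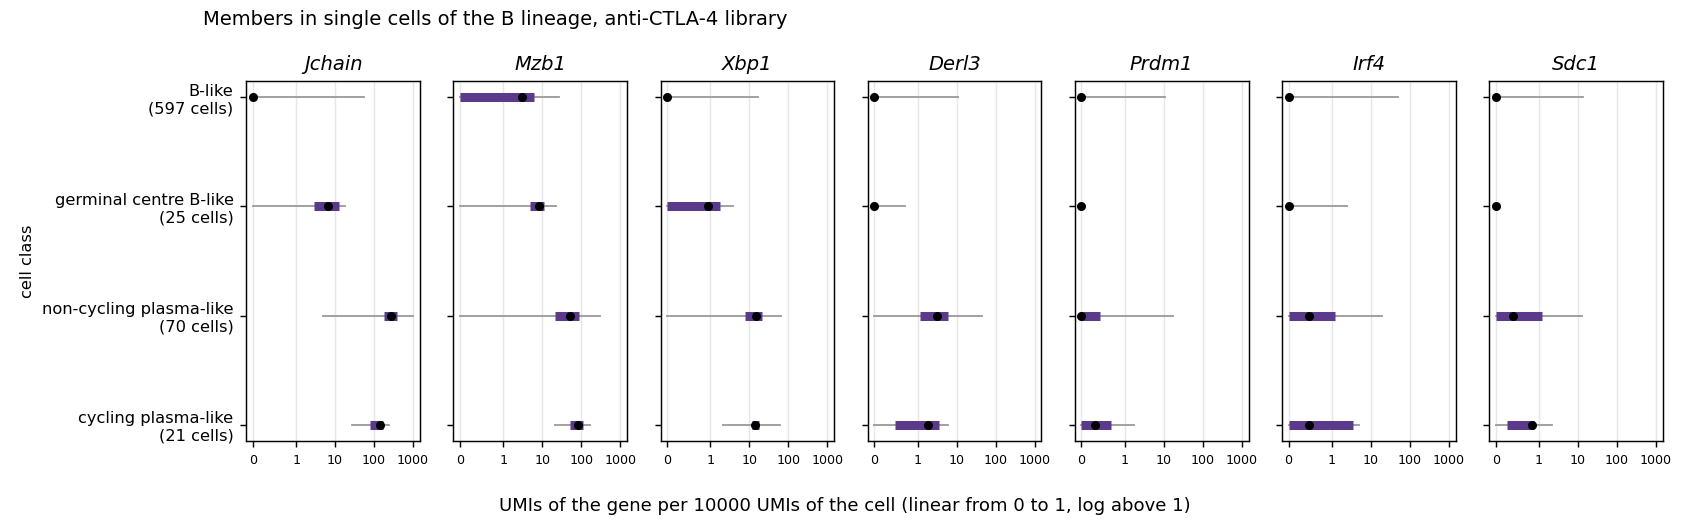
Level of each gene in single anti-CTLA-4 cells (UMIs per 10000 UMIs of the cell, linear from 0 to 1 and log above 1) for B-like, germinal centre B-like, non-cycling and cycling plasma-like cells. Points are medians, thick bars run from the lower to the upper quartile and thin lines from the lowest to the highest cell. Jchain steps up from a median of 0 in B-like to 6.58 in germinal centre B-like and 266 in non-cycling plasma-like cells, while Prdm1 and Sdc1 have no UMI in germinal centre B-like cells.

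The 25 germinal centre B-like cells carried part of the programme. Compared with B-like cells, 3 of the 5 genes with enough UMIs were at least 2-fold higher and 2 were at least 2-fold lower, beside 15.7% and 17.3% of 7510 genes. Jchain was at 10.8 (422 UMIs), 32.6-fold above B-like cells (24.9 to 43.3), and was found in 24 of 25 cells and in 62.5% of 24 thinned cells. Mzb1 was at 8.85, a ratio of 2.17 (1.90 to 2.46), and Xbp1 at 1.48, a ratio of 2.87 (2.03 to 4.01). Irf4 was at 0.255 (10 UMIs), 0.210 of the B-like level (0.0994 to 0.394). Derl3 gave 3 UMIs, and Prdm1 and Sdc1 gave none. Against a floor of 3 UMIs Sdc1 was at 0.389 of the B-like level, with an exact upper limit of 0.502. The 2 control germinal centre B-like cells held 5 Jchain and 10 Mzb1 UMIs and none of the other genes.

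From germinal centre B-like to plasma-like cells all 7 genes were at least 2-fold higher, beside 11.3% of 6464 genes higher and 53.3% lower. Derl3 was 50.5-fold higher (17.2 to 245), Jchain 24.9-fold (22.6 to 27.5), Xbp1 10.8-fold (8.32 to 14.2), Mzb1 8.50-fold (7.64 to 9.48) and Irf4 4.20-fold (2.24 to 8.87). Sdc1 was 9.77-fold and Prdm1 4.60-fold higher against a floor of 3 UMIs in the germinal centre B-like cells. The exact lower limits were 7.85 and 3.64. With immunoglobulin genes out of the totals the ratios were 83.5 for Derl3, 41.2 for Jchain, 17.8 for Xbp1, 14.0 for Mzb1 and 6.94 for Irf4. Jchain, Mzb1 and Xbp1 thus stood in ascending order in B-like, germinal centre B-like and plasma-like cells, whereas Irf4 was lowest in the middle class.

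Plasma-like cells fell into sub-clusters of 70 and 21 cells, called non-cycling and cycling here by the order of their Mki67 shares. Mki67, a proliferation gene, was found in 31.4% and 100% of them, so part of the cells called non-cycling carried it too. Median depth was 22031.5 and 32700 UMIs in the same order. Jchain was at 142 in cycling and 321 in non-cycling cells, a ratio of 0.442 (0.432 to 0.452), the single member past 2-fold. Derl3 was at 2.55 and 4.41, a ratio of 0.578 (0.481 to 0.690). Xbp1 was at 0.925 of the non-cycling level (0.856 to 0.999), and Mzb1 was higher in cycling cells, with a ratio of 1.14 (1.10 to 1.18). Irf4 was at 1.65 and 0.830, a ratio of 1.99 (1.51 to 2.62). Of 5279 genes, 39.2% were 2-fold or more higher in cycling cells and 3.83% lower, with a median log2 ratio of 0.80, beside immunoglobulin shares of 19.8% and 48.6%. With immunoglobulin genes out of the totals, Jchain was at 0.283, Derl3 at 0.370, Xbp1 at 0.593 and Mzb1 at 0.732 of the non-cycling level, while Irf4 was at 1.27 (0.967 to 1.68). The direction for Mzb1 therefore turned with the scaling.

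The promoters of the secretory genes were read for the ER stress response element (ERSE), because Xbp1 is known to act at this kind of sequence. The windows are the 250 bases before the RefSeq transcript start (GRCm38.p6), written 5' to 3' on the gene's strand. They are shown for Derl3, the gene with a match, at chr10:75893148-75893397 (plus strand), and for comparison for Jchain at chr5:88527898-88528147 (minus strand) and Xbp1 at chr11:5520391-5520640 (plus strand). Capitals mark motif matches.
Derl3: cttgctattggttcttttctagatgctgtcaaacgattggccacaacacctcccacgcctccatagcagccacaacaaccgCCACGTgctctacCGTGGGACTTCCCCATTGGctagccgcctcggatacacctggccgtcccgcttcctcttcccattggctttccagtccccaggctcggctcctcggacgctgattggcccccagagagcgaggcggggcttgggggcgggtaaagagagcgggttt
Jchain: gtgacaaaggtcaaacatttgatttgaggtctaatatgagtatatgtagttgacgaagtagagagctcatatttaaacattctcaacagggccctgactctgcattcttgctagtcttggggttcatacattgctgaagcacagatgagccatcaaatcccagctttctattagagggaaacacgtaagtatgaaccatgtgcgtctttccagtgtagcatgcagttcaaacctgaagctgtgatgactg
Xbp1: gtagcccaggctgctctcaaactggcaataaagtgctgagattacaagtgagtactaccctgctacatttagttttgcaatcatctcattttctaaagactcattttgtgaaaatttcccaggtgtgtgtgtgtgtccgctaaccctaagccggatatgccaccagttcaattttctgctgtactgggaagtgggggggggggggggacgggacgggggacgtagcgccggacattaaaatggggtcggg
Derl3 held the ERSE, which is CCAAT and CCACG with 9 bases of any kind between them, on the reverse strand from position -156, and the ACGT core CCACGT from position -169, with no overlap between the matches. The ERSE occurred in 39 of 32851 RefSeq promoters of the same table (0.1187%) and CCACGT in 8.307%, searched on both strands of windows that also take in 50 bases after the start. Derl3 spans 10:75893413-75895941 in GENCODE M21.

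No match was found in the windows of Jchain, Xbp1, Prdm1, Irf4 or Sdc1 for these motifs or for 5 others. These were ERSE-II, ATTGG and CCACG with 1 base between (0.03653% of promoters), the UPRE core TGACGTGG (0.6758%), which contains the reverse complement of CCACGT, and the Prdm1-type motif AGNGAAAG (8.633%). The others were the ISRE, GAAA and GAAA with 2 bases between (3.443%), and the EICE, GGAA and GAAA with 2 bases between (2.715%), which are linked to interferon regulatory factors. These matches are letters in a window and not measured binding. In the list of ER folding genes described next, 8 of the 27 genes with a window held the ERSE, namely Calr, Canx, Creld2, Dnajc3, Hsp90b1, Hspa5, Pdia6 and Syvn1. None of 20 translocation genes held it, and the promoter of Mzb1 was not used here.

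The wider secretory pathway was higher in plasma-like cells along with the members. Of 31 ER folding and unfolded protein response genes, 26 were at least 2-fold higher than in B-like cells and none 2-fold lower. Over all 8239 genes the shares were 10.2% higher and 52.6% lower. The median log2 ratio of the list was 2.49, beside -1.07 over all genes. Hsp90b1 (Grp94), an ER chaperone, was 17.3-fold higher, Edem1, which delivers misfolded glycoproteins for degradation, 24.9-fold, Hspa5 (BiP) 4.51-fold and Ppib 3.28-fold. Fkbp11 was 61.3-fold (33.1 to 128) and Creld2 33.1-fold (26.1 to 42.7) higher. On totals that include immunoglobulin genes, the stress factors Atf4 and Ddit3 lay near the B-like level, with ratios of 1.21 (1.05 to 1.38) and 0.859 (0.614 to 1.20). Immunoglobulin genes made up 40.2% of plasma-like and 0.964% of B-like UMIs. Taking them out of the totals would raise the ratios of all listed genes, and list ratios on that scale were not computed.

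Of 26 tested translocation and secretion genes, 21 were at least 2-fold higher and none 2-fold lower, beside 10.2% and 52.6% of all 8239 genes. The median log2 ratio of the list was 2.10. The signal sequence receptor subunit Ssr4 was 7.45-fold higher, the translocon subunit Sec61b 4.80-fold, and the signal peptidase subunits Sec11c and Spcs1 8.90-fold and 6.34-fold. Sec24d, a COPII coat protein, was 49.9-fold (16.8 to 244) and the cargo receptor Lman1 12.1-fold (9.20 to 16.2) higher. Tmed9 at 1.59 and Sec62 at 0.699 had the lowest ratios of the list, on totals that include immunoglobulin genes.

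Of 15 tested plasma cell receptors and regulators, 11 were at least 2-fold higher and 3 at least 2-fold lower, beside 10.2% and 52.6% of all 8239 genes. The median log2 ratio of the list was 1.67. Eaf2 was 32.4-fold, Trp53inp1 17.4-fold and the B cell coactivator Pou2af1 2.78-fold higher. The costimulatory receptor Cd28 had 582 plasma-like and 3 B-like UMIs, a ratio of 178 (60.6 to 866). The chemokine receptor Cxcr4 was lower at 0.161 of the B-like level, and the transcription factor Ikzf3 at 0.115. All 18 B cell identity genes lay 2-fold or more below the B-like level, beside 52.6% of all genes. The median log2 ratio of these 18 genes was -4.40. The antigen presentation genes Cd74, H2-Aa and H2-Ab1 were at 0.0798, 0.0442 and 0.0786 of the B-like level, and Cd79a and Cd79b at 0.129 and 0.179. Bank1 gave 2 plasma-like and 336 B-like UMIs and Spib 0 and 243. Txndc5, Fkbp11, Creld2 and Edem2 of the ER folding list were among the markers that named the plasma-like cluster. So were Tnfrsf17, Eaf2 and Trp53inp1 of the receptor list, and several B identity genes named the B-like cells. The ratios of these genes are descriptions of the naming, and the list counts and medians include them.

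The BCR library gave receptor contigs for the cells of the B lineage, which were still chosen by their expression class. The markers that named the plasma-like cluster included the immunoglobulin genes Ighg1, Ighg2b, Ighg2c, Igha, Iglv1 and Igkc. The isotypes and contig UMIs of plasma-like cells are therefore not independent of the name. Productive heavy chain contigs, which are assembled receptor sequences, were found in 88 of 91 plasma-like, 14 of 25 germinal centre B-like and 275 of 597 B-like cells. The median contig UMI count was 2924.5, 18.5 and 4. Of the plasma-like cells with a heavy contig 86 carried an IgG isotype and 2 IGHM, whereas of the B-like cells 259 carried IGHM or IGHD and 3 a switched isotype. B-lineage cells with 100 or more heavy contig UMIs numbered 76, and all were plasma-like. Among all kept cells 77 had such a contig count, the other one being a keratinocyte-like barcode described below.

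Between B-lineage cells with 1 to 9 and with 100 or more heavy contig UMIs, 6 of the 7 genes were at least 2-fold higher in the latter, beside 11.2% of 7155 genes higher and 51.2% lower. Jchain was at 0.436, 14.1 and 278 in cells with 1 to 9, 10 to 99, and 100 or more contig UMIs. Mzb1 was at 3.96, 10.1 and 77.4, and Xbp1 at 0.581, 2.16 and 16.2. Derl3 was at 0.109, 0.189 and 3.96, and Prdm1 at 0.0242, 0.0420 and 0.362. Sdc1 was at 0.206, 0.105 and 0.764, so its lowest level was in the middle class of 46 cells, within wide intervals. Irf4 was at 0.908, 1.11 and 0.961, with overlapping intervals, and its ratio between the outer classes was 1.06 (0.805 to 1.40). With immunoglobulin genes out of the totals Irf4 was at 0.918, 1.15 and 1.64, a ratio of 1.78 (1.36 to 2.36), so that it was higher at 100 or more contig UMIs on that scale. The first class held 248 B-like, 4 germinal centre B-like and 3 plasma-like cells, and the middle class 27, 10 and 9. The outer classes thus largely repeat the comparison of plasma-like with B-like cells. Median depth was also higher with more contig UMIs, going from 2956 through 5587.5 to 25114.5 UMIs per cell, and its part in the steps was not tested.

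**Figure D3:**
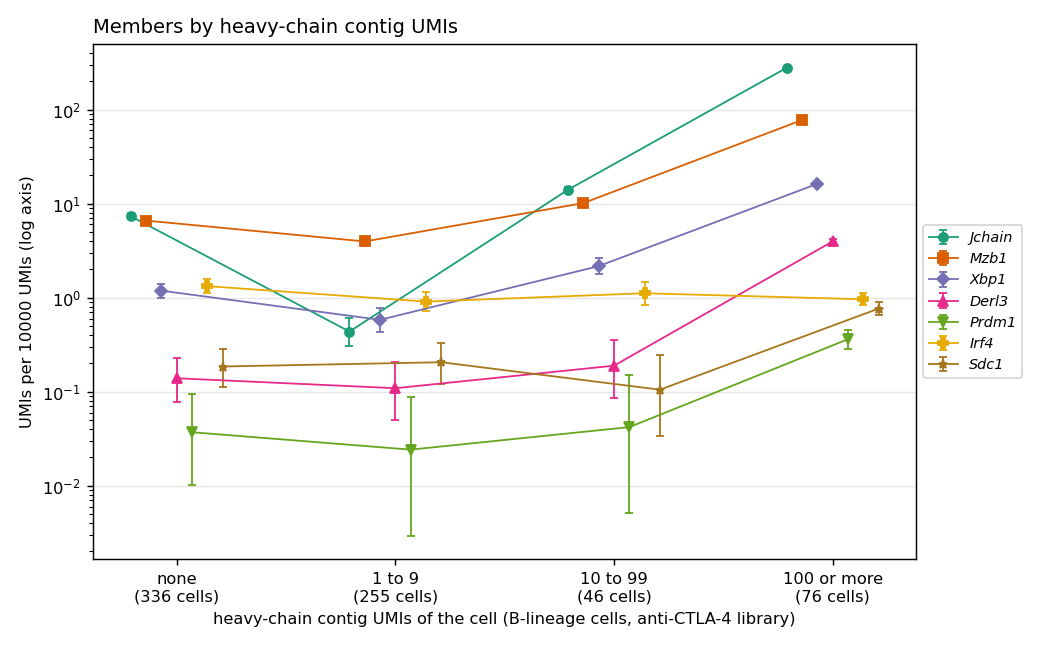
Level of each gene (UMIs per 10000 UMIs, log axis) in B-lineage cells of the anti-CTLA-4 library, by heavy-chain contig UMIs of the cell. The first position holds 336 cells without a heavy contig, of which 1 plasma-like cell gave 638 of the 791 Jchain UMIs. Points are levels of summed UMIs, bars exact 95% Poisson intervals, and lines join the classes of 1 gene. Every gene but Irf4 is highest in the 76 cells with 100 or more contig UMIs, where Jchain is at 278; Irf4 is highest there too (1.64) once immunoglobulin genes are out of the totals.

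Where each gene's UMIs lay differed between the members. In the anti-CTLA-4 library the B lineage (B-like, germinal centre B-like and plasma-like cells) held 98.1% of 56415 Jchain UMIs, 98.5% of 16743 Mzb1 UMIs, 92.9% of 861 Derl3 UMIs, 68.3% of 669 Irf4 UMIs and 64.2% of 5332 Xbp1 UMIs. It held 18.8% of 414 Prdm1 UMIs and 13.9% of 1363 Sdc1 UMIs, beside 22.5% of the UMIs of all genes. Myeloid cells held 43.0% of the Prdm1 and 48.8% of the Sdc1 UMIs, beside 17.7% of all UMIs, and keratinocyte-like cells 23.8% of the Sdc1 UMIs beside 4.22%. T and NK-like cells held 27.8% of the Irf4 UMIs and 46.9% of all UMIs.

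In the control library, with no plasma-like cell, the same genes were carried elsewhere. Jchain had 9 UMIs in all, 5 of them in the B lineage, and Derl3 had 11, none in the B lineage. Mzb1 had 124 UMIs, with 46.8% in the B lineage and 48.4% in plasmacytoid dendritic-like cells. Ptprc-negative cells, which held 88.4% of all control UMIs, held 83.6% of 10280 Xbp1, 64.8% of 702 Prdm1 and 71.7% of 4144 Sdc1 UMIs. T and NK-like cells held 49.1% of 55 Irf4 UMIs and 2.15% of all UMIs.

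**Figure D4:**
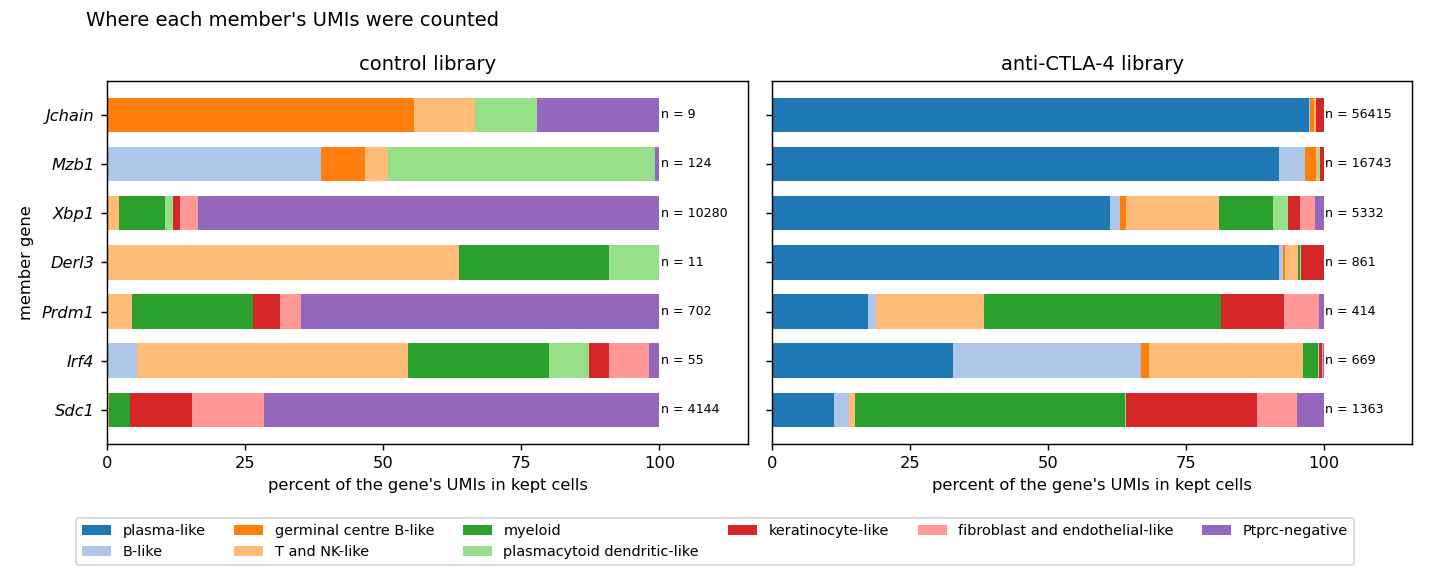
Percent of each gene's UMIs by cell class in the control library (left) and the anti-CTLA-4 library (right), with the number of UMIs beside each bar. In the anti-CTLA-4 library plasma-like cells hold most Jchain, Mzb1, Derl3 and Xbp1 UMIs, while myeloid cells are the largest single carrier of Prdm1 (43.0%) and Sdc1 (48.8%).

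By level, 4 of the 7 genes were highest in plasma-like cells among the 11 anti-CTLA-4 classes of 20 or more cells: Jchain, Mzb1, Xbp1 and Derl3. The 15 plasmacytoid dendritic-like cells of this library, too few for this order, had Xbp1 at 82.9% of the plasma-like level. For Prdm1, plasma-like cells at 0.352 came after monocyte/macrophage-like cells at 0.607 and keratinocyte-like cells at 0.580, whose intervals overlapped. Prdm1 is known outside the B lineage as a regulator of myeloid and epidermal differentiation. Irf4 was highest in B-like cells at 1.21 and next in plasma-like cells at 1.07, with overlapping intervals. Sdc1 was highest in keratinocyte-like cells at 4.01, then monocyte/macrophage-like at 2.51, fibroblast-like at 1.19, Ptprc-negative at 0.994 and plasma-like cells at 0.748. Sdc1 is known as an epithelial proteoglycan as well as a plasma cell marker. With immunoglobulin genes out of the totals 5 of the 7 genes were highest in plasma-like cells, since Irf4 was at 1.79 there and 1.23 in B-like cells. On that scale plasma-like Prdm1, at 0.588, lay beside the monocyte/macrophage-like and keratinocyte-like levels of 0.607 and 0.591. Plasma-like Sdc1, at 1.25, came next after keratinocyte-like and monocyte/macrophage-like cells, with an interval that overlapped that of fibroblast-like cells at 1.19.

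In the control library Sdc1 was likewise highest in keratinocyte-like cells at 4.26, beside fibroblast-like cells at 4.25. Prdm1 was highest in endothelial-like cells at 0.572, with an interval that overlapped that of monocyte/macrophage-like cells at 0.335. Irf4 was highest in T-like cells at 0.306, and the interval of plasmacytoid dendritic-like cells, next in order, overlapped it. Xbp1 and Mzb1 were both highest in plasmacytoid dendritic-like cells, which are professional interferon-secreting cells, although for Mzb1 the interval overlapped that of B-like cells at 3.50. Xbp1 was at 11.1 in 30 control cells of this class and 13.2 in 15 anti-CTLA-4 cells, and Mzb1 at 4.15 and 3.38. Jchain gave 1 and 0 UMIs in those cells, and Derl3 1 and 1, beside 126 and 80 UMIs of the kappa light chain gene Igkc.

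Patterns over the 11 classes placed the members in different company. The Pearson r of log2(level + 0.1) was 0.92 between Jchain and Derl3, 0.90 between Jchain and Mzb1, 0.83 between Xbp1 and Derl3, and 0.73 between Prdm1 and Sdc1, but -0.23 between Irf4 and Sdc1. The classes share 1 library, so these values are descriptions. The keratinocyte-like values of Jchain, Mzb1 and Derl3 came largely from 1 barcode, described below. Without the keratinocyte-like class, a setting chosen after the data were seen, the first 3 values were 0.91, 0.91 and 0.89. Of 9167 other genes searched, Fut8 (r = 0.94) was most like Jchain, Pou2af1 (0.96) most like Mzb1, Plpp5 (0.92) most like Xbp1 and Il10 (0.95) most like Derl3. Hist1h2bc (0.91) was most like Prdm1 and Ralgps2 (0.86) most like Irf4. Rbm47 (0.88) was next for Prdm1 and Fcrla (0.85), a B cell gene, next for Irf4.

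Outside the B lineage Jchain was scarce. In the anti-CTLA-4 library 6.43% of T-like, 5.94% of neutrophil-like and 3.80% of monocyte/macrophage-like cells had a Jchain UMI, and levels were 0.206, 0.387 and 0.0928. These are 0.0769%, 0.144% and 0.0346% of the plasma-like level. Per 100 Igkc UMIs there were 30.8 Jchain UMIs in T-like, 88.2 in neutrophil-like and 66.7 in monocyte/macrophage-like cells, against 91.9 in plasma-like and 2.22 in B-like cells. Of the 572 Igkc UMIs of T-like cells, 251 lay in 1 barcode that held 10 Jchain UMIs. RNA free in the droplets was not tested as the source of the Jchain UMIs outside the B lineage. In the control library 4 Jchain UMIs in all lay outside the B lineage.

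Keratinocyte-like cells stood apart through 1 barcode. Their Jchain level of 10.0 (813 UMIs), Mzb1 level of 1.57 (127 UMIs) and Derl3 level of 0.445 (36 UMIs) came largely from a cell with 803 Jchain, 126 Mzb1 and 36 Derl3 UMIs among 24530. That barcode also held 11 Xbp1, 3 Prdm1, 1 Irf4, 1 Sdc1 and 680 Igkc UMIs and a heavy contig of 3869 UMIs with IGHG1. Without the cells outside the B lineage that hold a BCR contig, the keratinocyte-like Jchain level was 0.128, Mzb1 0.0128 and Derl3 0. Whether the barcode held more than 1 cell was not tested. Only 3 other cells outside the B lineage had 5 or more Jchain UMIs, 2 T-like cells with 10 and 6 and 1 NK-like cell with 5.

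In monocyte/macrophage-like cells the libraries differed in Sdc1, which was at 2.51 in the anti-CTLA-4 library (649 UMIs in 447 cells) and 0.346 in the control library (154 UMIs in 1111 cells), a ratio of 7.26 (6.08 to 8.71). Of the 4 members with enough UMIs, 2 were at least 2-fold higher and none lower, beside 5.96% and 8.53% of 9816 genes. The other was Jchain, at 24 against 0 UMIs, 13.8-fold higher against a floor of 3 UMIs, with an exact lower limit of 10.4. Prdm1 was at 0.607 and 0.335, a ratio of 1.82 (1.44 to 2.29), and Xbp1 at 1.49 and 1.64, a ratio of 0.904 (0.797 to 1.02). In cells thinned to 1000 UMIs an Sdc1 UMI was found in 18.4% of 365 and 3.56% of 956 cells.

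The Sdc1 ratio was above 1 in each of the 3 clusters that make up this class. It was 9.49 (6.58 to 14.2) in cluster 2, 4.22 (3.37 to 5.32) in cluster 6 and 2.18 (0.600 to 6.63) in cluster 12, the last on 5 and 12 UMIs with an interval that includes 1. In cluster 2 and in cluster 6 Sdc1 was the single member of 3 past 2-fold, beside 6.84% of genes higher and 6.48% lower in cluster 2, and 7.1% and 9.36% in cluster 6. In cluster 12 neither of 2 members with enough UMIs passed it, beside 11.4% and 16.8%. Prdm1 ratios in these clusters were 1.40 (0.948 to 2.09), 1.52 (1.10 to 2.10) and 1.99 (0.762 to 4.67). As a mean over cells the Sdc1 ratio was 5.23 and the Prdm1 ratio 1.32. Without cluster 2, whose cells were shallow, the Sdc1 ratio was 5.50, a setting chosen after the data were seen. Leading genes of Ptprc-negative cells, as a sum over 40 genes, stood at 20.5% of the control Ptprc-negative level in control monocyte/macrophage-like cells. The share was 13.9% in those treated with anti-CTLA-4, and its part in the ratios was not tested.

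In fibroblast-like cells Sdc1 was lower after anti-CTLA-4, at 1.19 (93 UMIs) against 4.25 (531 UMIs), a ratio of 0.280 (0.222 to 0.349). Xbp1 was at 1.53 and 2.07 there, a ratio of 0.740 (0.591 to 0.922). Of the 3 members with enough UMIs 1 was 2-fold higher and 1 lower, beside 10.2% and 7.11% of 7815 genes. The higher one was Prdm1 with 16 and 12 UMIs, a ratio of 2.13 (0.945 to 4.93) that includes 1. The 40 leading genes of Ptprc-negative cells were as high in fibroblast-like cells as in their own class. They stood at 112% of the control Ptprc-negative level in control and 99.1% in anti-CTLA-4 fibroblast-like cells. Control Ptprc-negative cells themselves had Sdc1 at 0.408. The part of their RNA in the Sdc1 difference was not tested.

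In keratinocyte-like cells Sdc1 did not differ beyond counting error, at 4.01 and 4.26, a ratio of 0.941 (0.815 to 1.09). Prdm1 was at 0.580 and 0.308, a ratio of 1.88 (1.18 to 3.02), and Xbp1 at 1.47 and 1.11, a ratio of 1.33 (1.02 to 1.72). The barcode described above gave 11 of the 119 anti-CTLA-4 Xbp1 UMIs, and the lowest Xbp1 ratio over the processing alternatives was 1.24. Of 6 members 3 were at least 2-fold higher (Jchain, Mzb1 and Derl3, all from the barcode described above) and none lower, beside 9.09% and 11.6% of 7578 genes. Without the BCR contig cells the count was 0.

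In T-like cells, 2 of the 7 members were at least 2-fold higher in the anti-CTLA-4 library and 3 at least 2-fold lower, beside 6.82% of 10161 genes in each direction. Prdm1 was at 0.0926 (79 UMIs) against 0.272 (24 UMIs), a ratio of 0.341 (0.213 to 0.563). Derl3 was at 0.296 of the control level (0.120 to 0.828) and Sdc1 at 0.168 (0.0646 to 0.468), on 7 and 8 control UMIs. As a mean over cells the Derl3 ratio was 0.584, which is no longer past 2-fold. Jchain, at 176 against 0 UMIs, was 6.07-fold higher against a floor of 3 UMIs, with an exact lower limit of 4.89. Mzb1, at 55 against 1 UMI, was 5.69-fold higher (0.980 to 229), or 15.2-fold as a mean over cells. The anti-CTLA-4 T-like levels of Jchain and Mzb1 were 0.0769% and 0.0857% of the plasma-like level. Only the anti-CTLA-4 library held plasma-like cells, and RNA free in the droplets was not tested as the source of these UMIs. Irf4 was at 0.218 and 0.306, a ratio of 0.713 (0.475 to 1.11) that became 1.01 as a mean over cells, and Xbp1 at 0.975 and 0.962, a ratio of 1.01 (0.810 to 1.28).

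Different clusters held the T-like cells of the libraries, and Prdm1 differed between those clusters. Cluster 18, led by the regulatory T cell genes Foxp3, Ctla4 and Ikzf2, held 101 of the 370 T-like cells from the control library and 144 of the 2115 from the treated one. It held 19 of the 24 control Prdm1 UMIs. Cluster 0, led by the naive T cell genes Lef1 and Tcf7, held 66 and 814 cells with 0 and 10 Prdm1 UMIs, and no member passed 2-fold there, beside 11.3% of genes higher and 12.5% lower. Within cluster 18 Prdm1 was at 0.345 in the anti-CTLA-4 and 0.736 in the control library, a ratio of 0.468 (0.251 to 0.891), the single member past 2-fold there, beside 8.35% of 5760 genes higher and 6.09% lower. In cluster 5, with 472 and 131 cells, Prdm1 was at 0.0409 and 0.0432 on 8 and 1 UMIs, and Jchain alone passed 2-fold, beside 11.5% higher and 7.9% lower.

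T-like cells were also split by UMIs of their own marker genes. In cells with a Foxp3 UMI, 124 treated and 65 control, Prdm1 was at 0.343 and 0.879, a ratio of 0.390 (0.202 to 0.770), beside 8.59% of genes 2-fold higher and 5.92% lower. Irf4 was at 0.699 and 0.465 there, and the interval of its ratio, 0.733 to 3.47, includes 1. In cells with Cd8a or Cd8b1 and no Cd4 UMI, 641 and 64, Irf4 was at 0.110 and 0.367, a ratio of 0.299 (0.140 to 0.708), beside 9.12% and 9.25%. In cells with Cd4 and neither Cd8 gene, 547 and 56, Xbp1 was at 1.16 and 0.575, a ratio of 2.01 (1.0 to 4.70) on 8 control UMIs, beside 14.5% and 7.9%. Whether the Irf4 ratios of these groups differ was not tested. The 40 leading genes of Ptprc-negative cells stood at 12.1% of the control Ptprc-negative level in control and 3.97% in anti-CTLA-4 T-like cells. Control Ptprc-negative cells themselves gave 0 Derl3 UMIs and had Sdc1 at 0.408. The part of their RNA in the Sdc1 and Derl3 ratios was not tested.

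**Figure D5:**
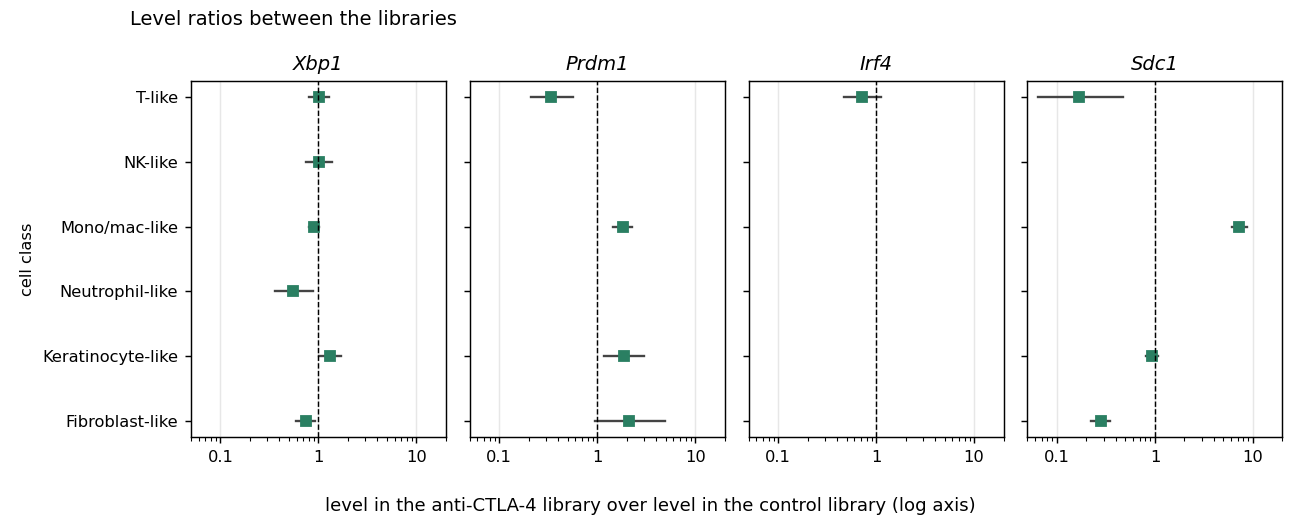
Ratio of the level in the anti-CTLA-4 library over the level in the control library (log axis) for Xbp1, Prdm1, Irf4 and Sdc1 in 6 cell classes with at least 50 cells in each library. Squares are ratios with at least 20 UMIs over both libraries, bars exact 95% intervals of counting error, and the dashed line marks 1. Sdc1 lies above 1 in monocyte/macrophage-like cells (7.26) and below 1 in fibroblast-like (0.280) and T-like cells (0.168), and Prdm1 below 1 in T-like cells (0.341).

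In NK-like and neutrophil-like cells 1 member each, Xbp1, had enough UMIs for a ratio. It was at 1.47 and 1.45 in NK-like cells, a ratio of 1.02 (0.747 to 1.37), and at 1.99 and 3.57 in neutrophil-like cells, a ratio of 0.557 (0.362 to 0.874). Neither passed 2-fold, beside 7.92% higher and 8.72% lower of 6424 genes in NK-like cells and 20.5% and 16.8% of 2107 genes in neutrophil-like cells. In B-like cells Mzb1 was at 4.08 in the anti-CTLA-4 and 3.50 in the control library, Xbp1 at 0.516 and 0.584, Irf4 at 1.21 and 0.219, and Sdc1 at 0.197 and 0.292. The control B-like cells gave 3 Irf4 UMIs and none of Jchain, Derl3 or Prdm1, where 3 UMIs would correspond to a level of 0.219.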

How the data were processed

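The expression files hold counts of UMIs per gene and barcode as deposited, not normalized, made with Cell Ranger 5.0.0 on builds GRCm38 and mm10 per the submitters' processing notes. For each assembled receptor contig the deposited tables give UMI counts and the constant gene. The sources used here do not name an annotation release. The 32285 genes were summed to 32245 symbols, and the members matched GENCODE M21 by gene ID. Barcodes needed at least 200 genes, and no more than 15% of their UMIs from mitochondrial genes. Scrublet marked 0 control and 1 anti-CTLA-4 cells, under 0.5%, so the 248 and 137 highest-scoring cells, 0.8% per 1000 cells, were removed.

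Both libraries were clustered together in scanpy 1.11.5 (2000 variable genes without the members, 30 components, 15 neighbours, Leiden resolution 1.0 with leidenalg 0.10.2). A cluster was named "-like" from at least 3 markers found in 20% of its cells, and clusters that got no name and had Ptprc in fewer than 5% of cells are called Ptprc-negative. Names are rebuilt, so shares may differ from those of the study. UMIs were summed per class and library. Levels have exact Poisson, shares Clopper-Pearson, and ratios conditional binomial 95% intervals (scipy 1.17.1). Only the ratio intervals were checked, on simulated Poisson counts, which hold no spread between cells beyond counting error. A sum of 0 was set to a floor of 3 UMIs for ratios and counts past 2-fold. Ratios between libraries needed 50 cells in each and 20 UMIs over both. Shares were compared after thinning cells to 1000 UMIs.

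Named genes were all 7 members, the leading genes by Pearson r over classes of at least 20 cells among genes with at least 100 UMIs, and from each of 4 lists the 4 with the most plasma-like UMIs and the 2 highest and 2 lowest ratios. The text prints some of the genes by r, and those for Sdc1 are not reported here. Sub-cluster leading genes were named after their values were seen. The members and lists were chosen with earlier results of these data known. The T cell receptor libraries were used only to count cells that hold both kinds of receptor.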

Additional observations from a re-analysis of the deposited data

Results flagged for a closer look

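3 members moved in opposite directions between the libraries in different cell classes, with the 95% counting interval of each ratio on its side of 1. The difference between the classes was not tested, since each library is 1 sample. Xbp1 was higher in the anti-CTLA-4 library in keratinocyte-like cells, with a ratio of 1.33, and lower in fibroblast-like cells at 0.740 and neutrophil-like cells at 0.557. Of the 119 keratinocyte-like Xbp1 UMIs in the anti-CTLA-4 library, 11 lay in the barcode with a heavy contig of 3869 UMIs. The lowest keratinocyte-like Xbp1 ratio over the alternatives was 1.24. Whether its interval includes 1 without that barcode was not tested. Prdm1 was higher in keratinocyte-like cells at 1.88 and in monocyte/macrophage-like cells at 1.82, and lower in T-like cells at 0.341. Sdc1 was higher in monocyte/macrophage-like cells at 7.26 and lower in fibroblast-like cells at 0.280 and T-like cells at 0.168.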

How the results depend on the processing

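The count of members past 2-fold between plasma-like and B-like cells was 6 and moved in no alternative by over 1.5 times. Between the libraries the monocyte/macrophage-like count of 2 became 1 with the members among the variable genes, without the BCR contig cells outside the B lineage, and without clusters of low depth, a setting chosen after seeing the data. The neutrophil-like count of 0 became 1 at 1.5-fold. The fibroblast-like count of 2 became 1 at resolution 2.0 and as a mean over cells. The keratinocyte-like count of 3 became 0 with the members among the variable genes and without the BCR contig cells. Members found in over 50% of plasma-like cells numbered 3 after thinning to 1000 UMIs and 6 without thinning. In all, 133 counts stayed within 1.5 times and 9 moved, and of single values 480 stayed within their interval (a Pearson r within 0.1) and 49 moved. Of the ratios whose interval is clear of 1, 0 came to lie on the other side of 1 under an alternative, and of those whose interval includes 1, 5 did. Irf4 in plasma-like over B-like cells, with an interval that includes 1, ranged from 0.859 to 1.46 over 13 alternatives. No paired analysis was possible because each group has 1 library and the labels carry no replicate numbers. Depth limits the members with few UMIs: in the control library Jchain had 9, Derl3 11, Irf4 55 and Mzb1 124 in all kept cells.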

Other observations

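Isotypes of the plasma-like cells were compared by level. In the 74 plasma-like cells with an IGHG1 contig Jchain was at 263 and Mzb1 at 75.0, in the 6 with IGHG2B at 237 and 71.8, and in the 6 with IGHG2C at 252 and 92.3. The 2 plasma-like cells with an IGHM contig had Jchain at 828 and Mzb1 at 33.5, on 2449 and 99 UMIs. With 2 cells this is a value and not a comparison.

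Heavy contigs were also found in 47 T-like and 6 NK-like cells, with medians of 4 and 5 contig UMIs, and 46 kept cells held both B and T cell receptor contigs. B-lineage cells without a heavy contig numbered 336, of which 322 were B-like, 11 germinal centre B-like and 3 plasma-like. Their Jchain level was 7.33 and their Irf4 level 1.32. Of their 791 Jchain UMIs, 638 lay in 1 plasma-like cell of 27077 UMIs. Without that cell, a setting chosen after the data were seen, the Jchain level of the 335 others was 1.45 and their Irf4 level 1.36.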
